A study of Mus musculus with 4 samples.

Results

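The 6 genes described here, Hsp90aa1, Hsp90ab1, Ptges3, Fkbp4, Fkbp5 and Bag1, encode the chaperones and co-chaperones that hold the glucocorticoid receptor, out of 21938 protein-coding mouse genes. They were chosen by name. Every region of the deposited list of differential H3K9ac that overlapped the span of one of them plus 5 kb on both sides was taken, which gave 26 of 45855 regions. H3K9ac is acetylation of lysine 9 on histone H3, a mark of active promoters and enhancers. The assay was ChIP-seq, in which antibody-bound chromatin is sequenced, and the cells were HT22, a mouse line of hippocampal origin (the source label reads TH22). The cells had been grown for 48 h in 5 µM choline chloride (control, CON) or 70 µM choline chloride (supplemented, SUP), in high-glucose medium with serum in both cases. There were 4 libraries, 2 of input DNA and 2 of ChIP DNA, and their labels do not say which had which choline level.

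The list holds regions called different between 2 conditions and no region that both conditions shared. Its conditions are numbered, and the name of the comparison lists 5 before 70, so the first was taken as 5 µM and the second as 70 µM. The title of the list itself reads input against H3K9ac and gives no choline level. Each statement on the choline level rests on the reading from the name of the comparison. At most 1 ChIP library stands behind each level, so the spread between replicates is unknown and nothing was tested. Each region carries a single score, the authors' own value, which describes the strength of the call and is not a level of H3K9ac in either library. Values per library and the read depth were not used here, so no precision from depth can be stated.

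In the cytoplasm the unliganded receptor is folded by the Hsp70 system and handed to a dimer of Hsp90, where it gains the ability to bind hormone. The co-chaperone p23, the product of Ptges3, stabilises the closed form of Hsp90. The immunophilins FKBP51 (Fkbp5) and FKBP52 (Fkbp4) compete for the same site on Hsp90: FKBP51 lowers the affinity of the receptor for hormone, and FKBP52 favours its transport to the nucleus. Fkbp5 is itself induced by glucocorticoids through intronic hormone response elements, and Bag1 encodes a nucleotide exchange factor of Hsp70 that restrains the receptor.

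All 6 genes carried regions assigned to 70 µM choline. Among all protein-coding genes the share with such a region in the same window was 60.7%. None of the 6 carried a 5 µM region, against 1.75% of all protein-coding genes in the same window and 0.88% within 1 kb of a start. The 26 regions were thus all 70 µM regions, in a list where 99.2% of regions were. Fkbp5 had 6 regions, Fkbp4 had 5, Hsp90ab1, Ptges3 and Bag1 had 4 each and Hsp90aa1 had 3. All 6 genes had at least 3, as did 29.7% of all protein-coding genes.

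**Figure D1:**
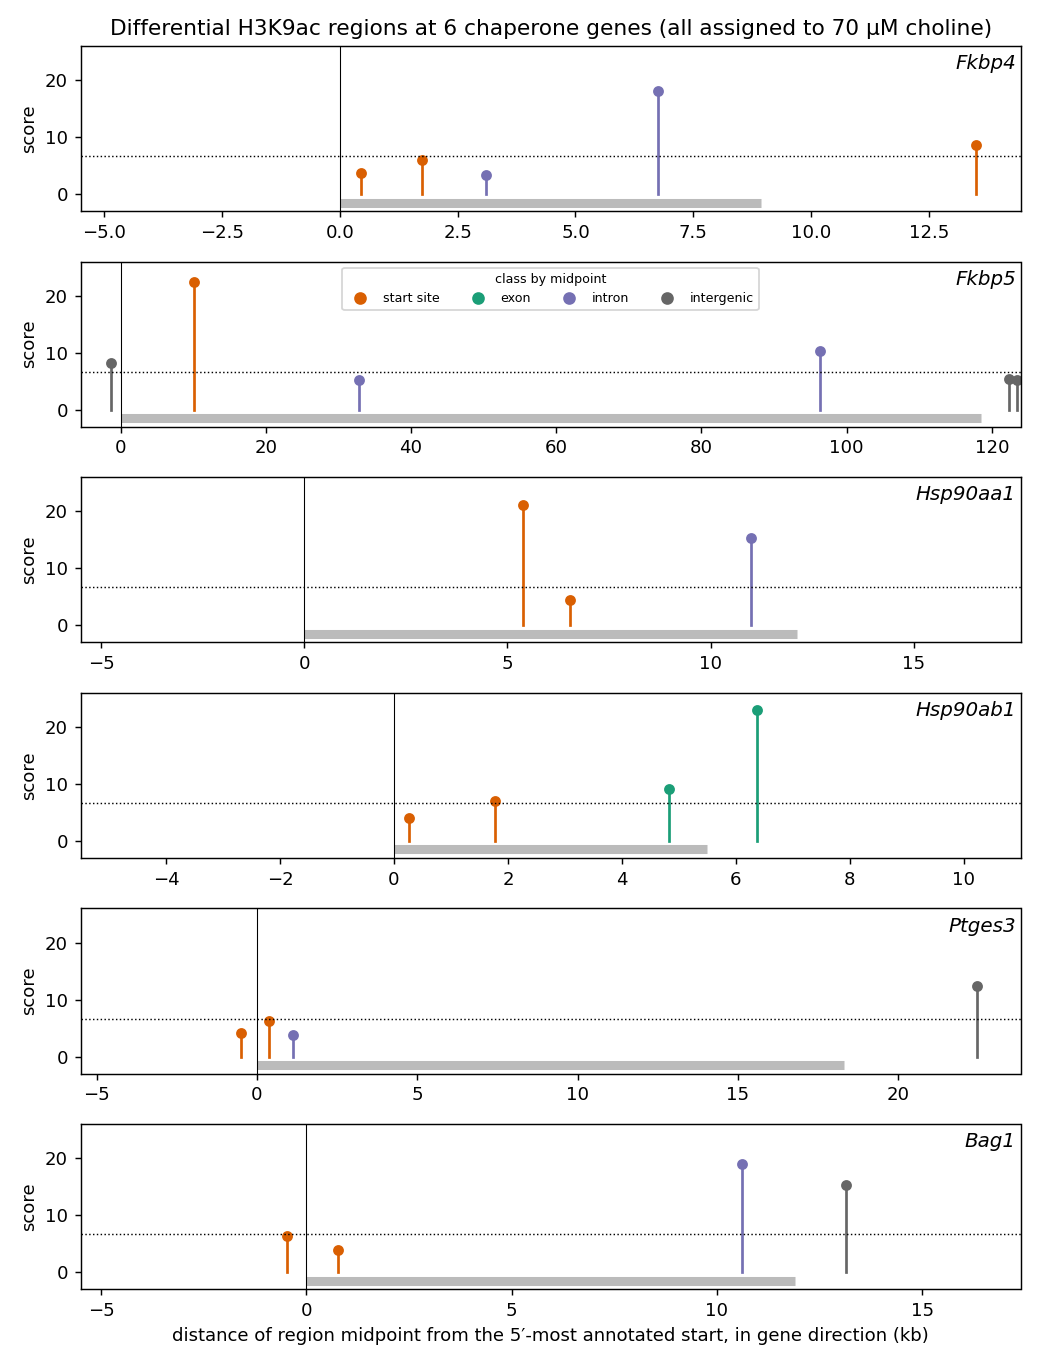
Position and score of the 26 regions, 1 panel per gene. The horizontal axis is the distance of the midpoint of a region from the 5′-most annotated start in kb, the vertical axis is the deposited score, the grey bar is the gene span, the dotted line is the median score of the list (6.64), and colours give the class by midpoint. In Fkbp4, Hsp90ab1, Ptges3 and Bag1 the regions nearest the start at 0 lie near or below the dotted line and the highest stem stands farther into or beyond the gene; the right-most orange region of the Fkbp4 panel is at the start of the neighbouring gene Itfg2.

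Of the 12 regions classed at a coding start, 6 were CpG-rich and 6 CpG-poor, and all 14 others were CpG-poor (by a ratio defined with the CpG values). The sequences of 4 CpG-rich regions with scores below the list median and 4 CpG-poor regions with scores above it are printed. They were chosen by CpG content and score together, so they do not show how CpG content and score are related. CpG-poor regions with low scores were not printed, among them those in Fkbp4 intron 3 (3.38), Ptges3 intron 1 (3.76) and Bag1 intron 1 (3.94). All 6 CpG-rich regions had scores from 3.75 to 6.30. The printed sequences are mm10, plus strand, 5′ to 3′, with CpG sites in capitals. Bases in annotated untranslated exons were left out. The first 4 are CpG-rich, lie beside starts and had deposited scores of 3.75 (Fkbp4), 3.96 (Hsp90ab1), 6.30 (Ptges3) and 6.30 (Bag1).
Fkbp4 intron 1, chr6:128438141-128438324: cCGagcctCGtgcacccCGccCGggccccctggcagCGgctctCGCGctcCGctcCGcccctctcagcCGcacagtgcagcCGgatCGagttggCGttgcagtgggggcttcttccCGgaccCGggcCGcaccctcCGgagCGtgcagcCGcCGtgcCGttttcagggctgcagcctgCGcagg
Hsp90ab1 intron 1, chr17:45572914-45573111: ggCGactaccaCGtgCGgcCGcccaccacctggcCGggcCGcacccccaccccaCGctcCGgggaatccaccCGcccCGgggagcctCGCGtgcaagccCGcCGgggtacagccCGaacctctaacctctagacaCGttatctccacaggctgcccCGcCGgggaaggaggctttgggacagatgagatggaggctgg
Ptges3 end of exon 1 and intron 1, chr10:128059285-128059486: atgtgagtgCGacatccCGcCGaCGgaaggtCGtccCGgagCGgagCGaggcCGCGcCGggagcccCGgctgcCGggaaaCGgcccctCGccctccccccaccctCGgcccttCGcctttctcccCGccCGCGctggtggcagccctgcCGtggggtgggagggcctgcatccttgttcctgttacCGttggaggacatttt
Bag1 upstream, Chmp5 exon 1 and intron, chr4:40948620-40948895: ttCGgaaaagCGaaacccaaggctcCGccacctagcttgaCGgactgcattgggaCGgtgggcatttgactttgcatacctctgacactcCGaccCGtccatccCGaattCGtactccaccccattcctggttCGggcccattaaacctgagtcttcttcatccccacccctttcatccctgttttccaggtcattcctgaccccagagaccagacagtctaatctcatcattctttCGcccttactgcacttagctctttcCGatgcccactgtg
The other 4 are CpG-poor and had deposited scores of 21.1 (Hsp90aa1), 22.9 (beside Hsp90ab1, in coding sequence of Slc35b2), 18.2 (Fkbp4) and 19.0 (Bag1).
Hsp90aa1 upstream, chr12:110697288-110697407: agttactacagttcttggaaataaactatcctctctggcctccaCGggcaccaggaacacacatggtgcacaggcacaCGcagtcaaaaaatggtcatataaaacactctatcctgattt
Hsp90ab1 downstream, Slc35b2 last exon, chr17:45566834-45566959: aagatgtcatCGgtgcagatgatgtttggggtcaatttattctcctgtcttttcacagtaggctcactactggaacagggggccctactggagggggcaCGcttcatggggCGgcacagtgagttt
Fkbp4 intron 9, chr6:128431823-128432011: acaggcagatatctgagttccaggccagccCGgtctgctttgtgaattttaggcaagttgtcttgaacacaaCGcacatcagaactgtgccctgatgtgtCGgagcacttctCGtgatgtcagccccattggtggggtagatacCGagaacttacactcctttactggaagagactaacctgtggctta
Bag1 intron 5, chr4:40937615-40937752: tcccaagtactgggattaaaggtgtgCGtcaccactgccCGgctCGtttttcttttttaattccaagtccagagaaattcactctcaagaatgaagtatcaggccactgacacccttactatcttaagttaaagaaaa
The printed stretches hold 22 CpG sites in 184 bases at Fkbp4, 18 in 198 at Hsp90ab1, 22 in 202 at Ptges3 and 12 in 276 at Bag1. The high-scoring ones hold 2 in 120 bases, 3 in 126, 5 in 189 and 3 in 138.

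Hsp90aa1 and Hsp90ab1 encode the stress-inducible and the constitutive cytosolic Hsp90, the core chaperones of the receptor complex. Hsp90aa1 (ENSMUSG00000021270.13, chr12:110690605-110702728, minus strand) carried 3 regions. The region farthest upstream, chr12:110697288-110697407, had a score of 21.1, higher than or equal to that of 93.7% of the list. It lay 893 bp upstream of the nearest annotated start and inside the gene span only because a longer transcript starts beyond it. The next, chr12:110696094-110696304, covered the starts of 2 of the shorter transcripts and held 162 bases of 5′ untranslated sequence. Its score was 4.39, at percentile 22.4 of the list. The last region, chr12:110691607-110691858, had a score of 15.3 and ran from intron 10 into the coding part of exon 11, with 43 coding bases (introns and exons are numbered along the first GENCODE transcript of each gene). Of the 3, only this second region was below the median of the list.

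Hsp90ab1 (ENSMUSG00000023944.14, chr17:45567775-45573271, minus strand) carried 4 regions in a window of 15.5 kb, the shortest of the 6. The region in intron 1, chr17:45572914-45573111, centred 259 bp after the 5′-most start, had a score of 3.96. A region at chr17:45571417-45571596 lay wholly in the coding sequence of exon 3 and had a score of 6.95; it covered the start of a retained-intron transcript. The region at chr17:45568377-45568496, wholly in the coding sequence of exon 10, had a score of 9.18. The last, chr17:45566834-45566959, had a score of 22.9, the highest of all 26 regions. It lay 816 bp beyond the 3′ end of Hsp90ab1, in the coding sequence of Slc35b2, a Golgi transporter gene that runs towards Hsp90ab1, and Nfkbie was also within 5 kb of it. Scores in Hsp90ab1 thus stood in the order of distance from the start.

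The paralogues differed in the class of their regions, which went by midpoint. Hsp90ab1 was the only one of the 6 genes with a region classed exonic away from annotated starts inside its span. Such a region was found in 10.3% of all protein-coding genes. The last region of Hsp90aa1 was classed intronic, although 43 of its bases were coding bases of exon 11. Hsp90ab1 was also the only one without a region classed intronic away from starts.

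Ptges3 (ENSMUSG00000071072.12, chr10:128058954-128077272, plus strand), the p23 gene, had its regions on either side of its start. Upstream, chr10:128058277-128058661 ended 293 bp before the start of the gene; it was the widest of the 26 regions, at 385 bp, and had a score of 4.08. Downstream, chr10:128059146-128059486 ran from the untranslated part of exon 1 into intron 1, with 139 untranslated bases and a score of 6.30. The next region, chr10:128059991-128060157, lay in intron 1, had a score of 3.76 and reached into the 1 kb window of a start only at its edge, 980 bp away. The last, chr10:128081339-128081481, had a score of 12.5 and lay 4067 bp beyond the 3′ end, in the noncoding gene Gm47438 and 1792 bp from a start of Atp5b. Of the bases of this region 92.3% were masked as repeat, the highest share of the 26. Next came the region farthest downstream of Fkbp4 (64.9%), the Bag1 intron 5 region (47.8%) and the Hsp90aa1 region farthest upstream (45.8%). Regions with at least 50% of their bases masked were 7.69% of the 26 and 14.0% of the list. The 3 regions near the start were all below the median score of the list, and the repeat region was above it.

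Fkbp4 (ENSMUSG00000030357.10, chr6:128429735-128438677, minus strand) encodes FKBP52 and had 5 regions in 18.9 kb. In intron 1, chr6:128438127-128438324 had a score of 3.75 and a G and C share of 75.8%, the highest of the 26. A region still in intron 1, chr6:128436848-128437018, had a score of 5.92, and one in intron 3, chr6:128435521-128435651, had a score of 3.38, the lowest of the 26 at percentile 1.23 of the list. In intron 9, chr6:128431823-128432011 had a score of 18.2. The region farthest downstream, chr6:128425112-128425245, had a score of 8.64 and belongs by position to Itfg2, 181 bp from a start of that gene and 4490 bp beyond the end of Fkbp4. Within Fkbp4 itself, the intron 9 region alone was above the median of the list.

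Fkbp5 (ENSMUSG00000024222.17, chr17:28399094-28517527, minus strand) encodes FKBP51 and spans 118434 bp, the longest of the 6 genes. Its region at chr17:28507272-28507451 had a score of 22.4, at percentile 96.4 of the list. That region lay wholly in exon 2 of alternative transcripts, which is 5′ untranslated sequence, and covered the start of a retained-intron transcript; it stood 10166 bp after the 5′-most start. Upstream of the gene, chr17:28518728-28518913 had a score of 8.23 and ended 1201 bp before the 5′-most start, just outside the 1 kb window. The other intragenic regions were intronic: chr17:28484628-28484774 in intron 1, with a score of 5.17, and chr17:28421173-28421357 in intron 5, with a score of 10.3. Downstream of the gene, chr17:28395056-28395249 and chr17:28393980-28394104 had scores of 5.38 and 5.19. The strongest region of Fkbp5 was thus at an internal exon of alternative transcripts and at an annotated start, and it lay outside the first GENCODE transcript.

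The intron 5 region of Fkbp5 is printed because it is the only one of the 26 in which an arm of the palindromic glucocorticoid response element was found. The arm is in capitals (TGTTCT on the plus strand at 28421221 to 28421226). The search over whole regions left out bases masked as repeat. Windows of 300 bp centred on the regions included such bases, but the Ptges3 regions of 385 and 341 bp extend beyond them.
Fkbp5 intron 5, chr17:28421173-28421357: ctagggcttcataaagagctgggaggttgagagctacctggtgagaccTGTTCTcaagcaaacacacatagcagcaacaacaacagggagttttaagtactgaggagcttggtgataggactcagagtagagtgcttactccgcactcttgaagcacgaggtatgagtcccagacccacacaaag
The full element, AGAACA and TGTTCT with any 3 bases between, was not found on either strand in 300 bp centred on any of the 26 regions, and 0.00872% of all regions of the list had it in the same window. A single arm, AGAACA on either strand, was in 2 of the 26 windows, at Fkbp5 and at the exon 10 region of Hsp90ab1, where it lay outside the region itself; 21.9% of all regions had it. Heat shock elements, searched on both strands as 3 alternating GAA and TTC units with any 2 bases between units, were in none of the 26 windows and in 0.508% of all. Each full element also holds the single arm. Of the 6 genes, Bag1, Fkbp4, Fkbp5 and Ptges3 were matched in a RefSeq promoter table (GRCm38.p6, 300 bases from 250 before to 50 after the start). None of these 4 promoters held any of the 3 motifs, and none was overlapped by a region, as 8.01% of all 32851 promoters were. Over those promoters the single arm was in 19.0% and the heat shock element in 0.603%.

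Bag1 (ENSMUSG00000028416.12, chr4:40936398-40948294, minus strand) starts close to Chmp5, an endosomal sorting gene on the other strand. The region chr4:40948620-40948895 lay 326 bp upstream of the Bag1 start and 213 bp inside Chmp5, with 57 of its bases in the coding part of exon 1 of Chmp5, and had a score of 6.30. On the other side of the start, chr4:40947443-40947609 in intron 1 of Bag1 had a score of 3.94. Much farther in, chr4:40937615-40937752 in intron 5 had a score of 19.0; that exact score is shared by 2552 regions and is the commonest of the list. Beyond the 3′ end by 1155 bp, chr4:40935076-40935243 had a score of 15.2. The regions near the start were below the median of the list and the distant ones above it, as in Ptges3.

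**Figure D2:**
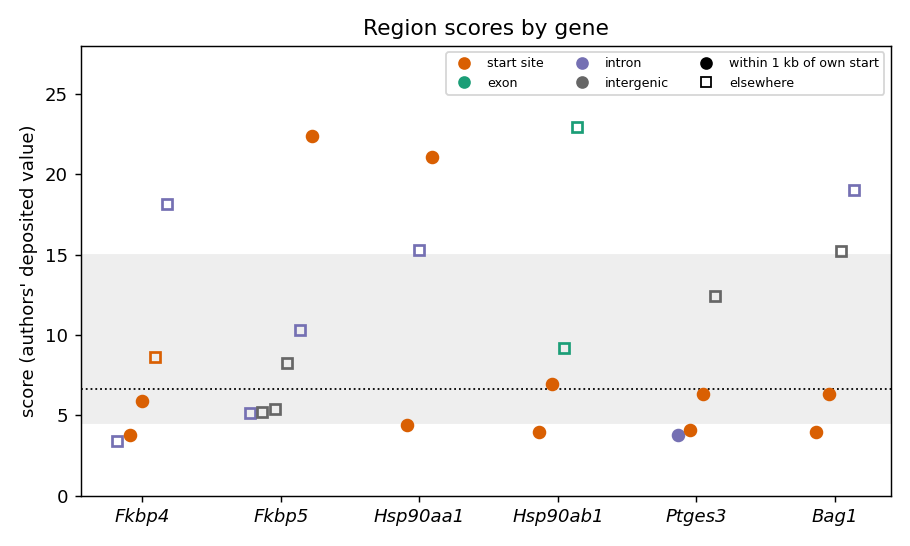
Deposited score of each of the 26 regions by gene. Filled circles lie within 1 kb of a start of the gene itself and open squares elsewhere, colours give the class by midpoint, the band spans the quartiles of the whole list (4.52 to 14.98) and the dotted line is its median. Of the 12 filled circles, 3 lie above the dotted line, beside 26.6% of all regions near coding starts that reach it. The 2 highest filled circles are the regions at internal or upstream positions of Fkbp5 (22.4) and Hsp90aa1 (21.1).

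At each of the 6 genes a 70 µM region lay within 1 kb of an annotated start, against 39.2% of all protein-coding genes. Taking the 5′-most start of each gene alone, Bag1, Fkbp4, Hsp90ab1 and Ptges3 had one and Fkbp5 and Hsp90aa1 did not, against 32.2% of all protein-coding genes. Fkbp5 has 14 annotated starts and Hsp90aa1 has 8, so their windows are larger than those of Fkbp4 and Ptges3, with 3 starts each. None of the 6 had a region covering its 5′-most start itself, as 4.18% of all protein-coding genes did. Ptges3 and Bag1 had regions on both sides of that start within 1 kb, which 6.09% of all protein-coding genes had. Over all genes, coverage by 70 µM regions was highest 450 bp downstream of the start, at 7.12% of genes, and was 4.18% at the start.

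**Figure D3:**
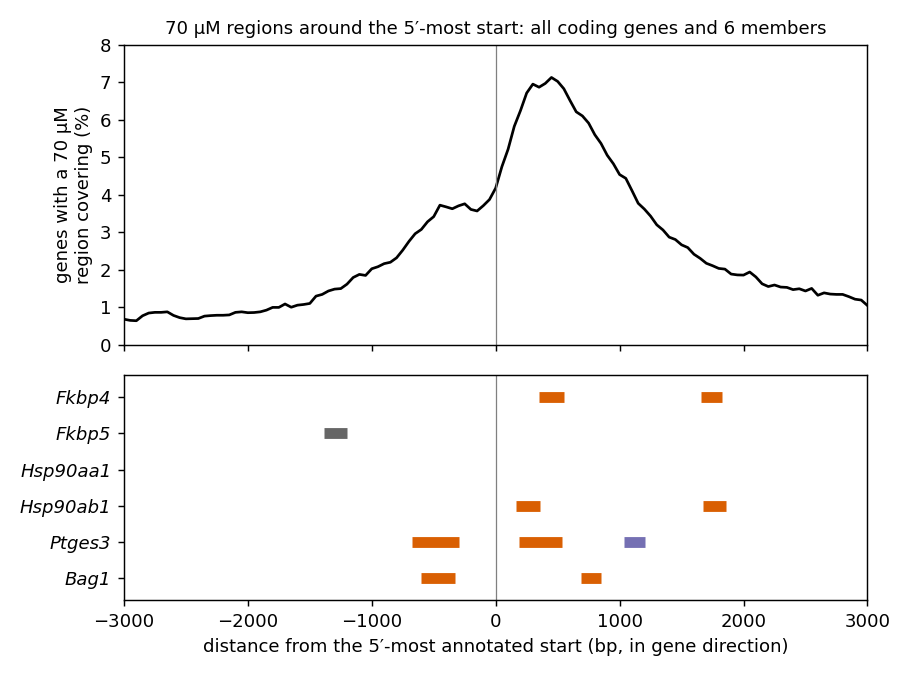
Regions around the 5′-most annotated start. The upper panel gives the share of 21938 protein-coding genes with a 70 µM region covering each position, in steps of 50 bp, and the lower panel gives the regions of the 6 genes as bars in the direction of the gene. The curve peaks at 7.12% at 450 bp, where the first bar of Fkbp4 lies; no bar crosses 0, and Hsp90aa1 has no bar in this range.

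Regions near starts had lower scores as a group than the others, with Fkbp5 and Hsp90aa1 as exceptions, since the highest score of each was within 1 kb of a start. The 12 regions within 1 kb of a start of their own gene had a median score of 5.15, from 3.75 to 22.4, and 3 of them reached the median of the list. The 14 others had a median of 9.75, from 3.38 to 22.9, and 10 of them reached it. For comparison with the list, which was split by the starts of any coding gene, the same split of the 26 regions gave 13 near a start with a median of 5.92 and 13 others with 10.3. Over the whole list, 13316 regions near coding starts had a median score of 5.003 and 32539 elsewhere had 8.73. In the list, 26.6% of regions near coding starts and 59.6% of those elsewhere reached its median. By the same split, the shares among the 26 regions were 30.8% and 69.2%. By score alone, the 26 regions had a median of 6.63 against 6.64 for the list, and 13 of the 26 reached the median of the list. Their median width was 175.5 bp against 170 bp.

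Intronic regions with a midpoint over 1 kb from every coding start were found in 5 of the 6 genes, all but Hsp90ab1, against 32.2% of all protein-coding genes. There were 7 of them: 2 in Fkbp4, 2 in Fkbp5 and 1 each in Hsp90aa1, Ptges3 and Bag1; the edge of the Ptges3 region was within 1 kb of a start, so it is also among those near a start of their own gene. Their median score was 10.3, from 3.38 to 19.0, beside 8.63 for 16868 intronic regions of the list. By class, 12 of the 26 regions (46.2%) were at a coding start, counting that of Itfg2, against 27.7% of the list, 2 were exonic, 7 intronic and 5 intergenic. The windows were drawn around genes, whereas the list also holds regions far from any gene. How much of this difference comes from the windows was not tested.

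Scores also differed with CpG content. By the ratio of observed to expected CpG sites in 300 bp centred on the region, 6 of the 26 were at or above 0.6, a limit used for CpG islands and applied here after the values were seen. These were the first regions of Fkbp4, Hsp90ab1 and Bag1, the first pair of Ptges3 and the second region of Hsp90aa1, with a median score of 4.24, from 3.75 to 6.30. The 20 CpG-poor regions had a median of 8.91, from 3.38 to 22.9. None of the Fkbp5 regions was CpG-rich. Over the list, 5905 CpG-rich regions had a median score of 4.81 and 39950 CpG-poor ones had 7.55. Among the regions classed at a start alone, the CpG-rich and CpG-poor medians were 4.24 and 7.80 for 6 and 6 members' regions, and 4.72 and 5.24 for the list, a smaller gap. CpG-rich regions were 23.1% of the members' regions and 12.9% of the list.

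**Figure D4:**
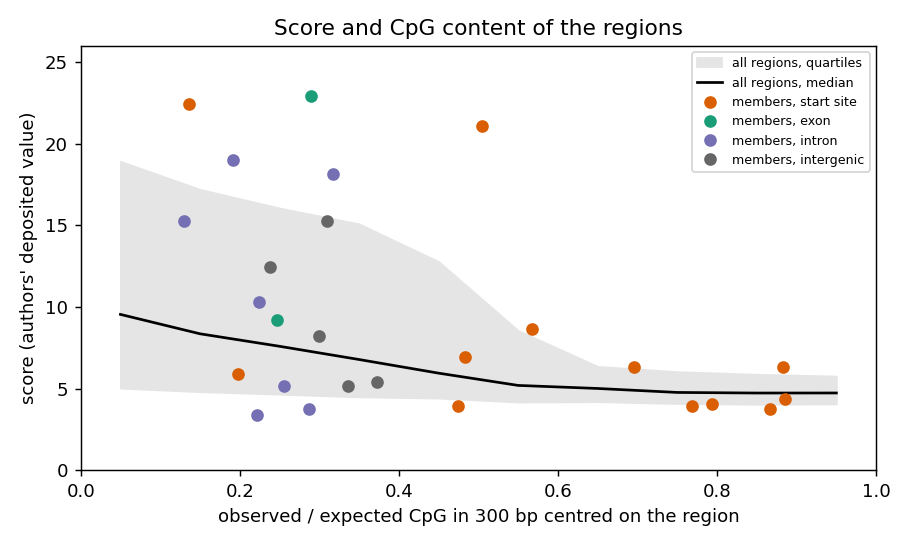
Deposited score against the ratio of observed to expected CpG sites in 300 bp centred on each region. Points are the 26 regions coloured by class, and the line and band are the median and quartiles of all 45855 regions in steps of 0.1, the last step holding all ratios of 0.9 and above. The 6 points at or above 0.6 lie between 3.75 and 6.30, and the points over 15 all lie below 0.6.

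Relative to gene length, Fkbp5 stood apart from the other 5 genes. Fkbp4 had 2.64 regions per 10 kb of span and flanks, Hsp90ab1 2.58, Bag1 1.83, Ptges3 1.41 and Hsp90aa1 1.36. Fkbp5, with the most regions, had the lowest density, 0.467 per 10 kb. The median over all protein-coding genes was 0.240, and over genes with at least 1 region it was 0.646. Fkbp4 exceeded 93.5% of genes with a region, Hsp90ab1 93.1% and Fkbp5 37.3%. By the strongest region in span and flanks, Hsp90ab1 exceeded 92.8% of genes with a region, Fkbp5 91.0% and Hsp90aa1 85.2%, and Ptges3, at 48.1%, was near the middle. The strongest regions of Hsp90ab1 and Ptges3 lay in the downstream flank, that of Hsp90ab1 in coding sequence of Slc35b2. Inside Hsp90ab1 itself the highest score was 9.18.

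**Figure D5:**
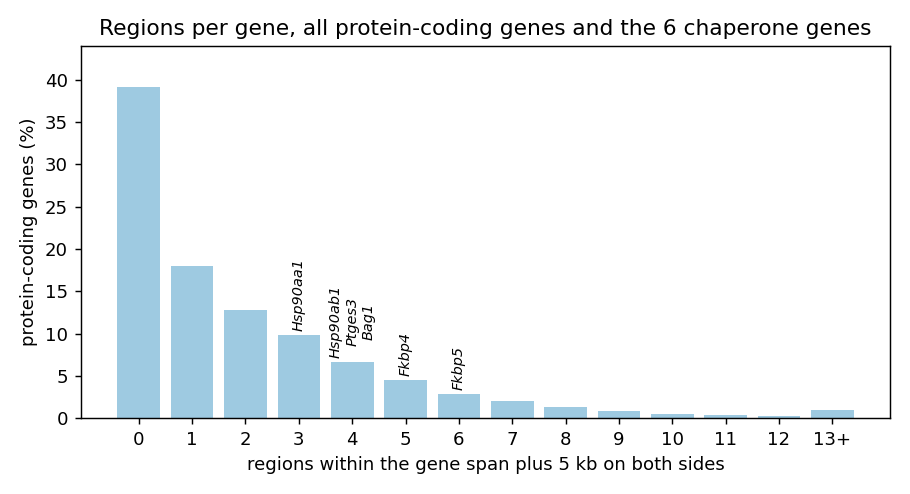
Number of regions in the gene span plus 5 kb on both sides. Bars give the share of 21938 protein-coding genes with each number, and the names mark the 6 genes. The largest bar is at 0 (39.2% of genes), and the 6 genes stand between 3 and 6.

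Hsp90 genes and Ptges3 have processed pseudogenes, so the 36-base words of each region were looked up in the whole genome. In 19 of the 26 regions no word occurred elsewhere. At the second region of Hsp90aa1, 18 of 176 words did, and at its last region 10 of 217, at copies that include the pseudogene Gm12346. At Hsp90ab1, 6 of 145 words of the exon 3 region occurred in Gm7002 and 11 of 85 words of the exon 10 region in Gm46190. At Ptges3, 86 of 306 words of the region over exon 1 occurred elsewhere, in Ptges3-ps among others. The downstream repeat region of Ptges3 had 51 of 108 words elsewhere, one of them at 23542 other places, and the intron 5 region of Bag1 had 1 of 103. The handling of reads with several matches is not stated, and the part of such reads in these calls was not tested.

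Other genes of the Hsp90 and Hsp70 machinery were looked up in the same way. Of 31 such genes, 27 had a 70 µM region in span plus 5 kb and none had a 5 µM region, beside 60.7% and 1.75% of all protein-coding genes. A region within 1 kb of a start was present in 24 of the 31, beside 39.2%, and an intronic region away from starts in 14, beside 32.2%. The highest scores were at Ttc4, which encodes a tetratricopeptide co-chaperone of Hsp90 (26.8, with 9 regions), Bag3, a stress-induced Bag gene (22.2, with 6 regions), St13, which encodes the Hsp70-interacting protein Hip (22.1, with 5 regions), and Stub1, the ubiquitin ligase of chaperone clients (21.8). Bag4 followed with 19.8, Sgta with 16.6, Ppid, which encodes the immunophilin Cyp40, with 15.97, and the phosphatase gene Ppp5c with 15.7. The highest-scoring regions of Ttc4, Stub1 and Ppid lay in the flanks, outside the spans of these genes. That of Stub1 was classed exonic, so it lay in an exon of another coding gene. Bag6 had 5 regions with scores of up to 12.4. The Hsp90 ATPase activator Ahsa1, Bag2, Chordc1 and Sugt1 had none. A gene without a region may carry H3K9ac at both choline levels, since shared regions are not listed.

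Markers of cell identity were looked up in the same windows. Of 8 neuronal markers, 7 had a 70 µM region and 3 had one within 1 kb of a start, beside 60.7% and 39.2% of all protein-coding genes, and Nefl had none. The counts with a 70 µM region were 2 of 4 for astrocytes, 3 of 4 for microglia and 5 of 5 for fibroblasts and mesenchyme, beside 60.7% of all protein-coding genes, with Gfap, Aqp4 and P2ry12 without any. Within 1 kb of a start the counts were 2 of 4, 1 of 4 and 4 of 5 in the same order, beside 39.2%. A 5 µM region was near 2 of the microglial markers and 1 of the fibroblast and mesenchyme markers, beside 1.75%. These counts concern differential regions, and the presence of the mark at these genes was not tested.

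Widening the 5 kb limit to 10 kb gave 28 regions in place of 26. Narrowing it to 2 kb gave 22, and 17 remained without flanks. The last region of Fkbp5, 4990 bp beyond the gene, was the one nearest to the 5 kb limit inside. A region 5642 bp beyond the end of Fkbp4, at chr6:128423952-128424093 with a score of 5.30, was the nearest outside. The next was 8545 bp beyond the end of Hsp90aa1, at chr12:110681901-110682060, with a score of 3.61, and was also a 70 µM region.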

How the data were processed

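Libraries of input DNA (2) and H3K9ac ChIP DNA (2) were grouped by the kind of library that their titles give. The build mm10 and the tools CASAVA 1.8, Bowtie 1.0.0 and MACS2, the last without a version, are named per the submitters' processing notes; per the series' design text, peaks were called against input and differences with the bdgdiff function of MACS2. The deposited list holds a position and a score per region, and per the file headers its regions are unique to condition 1 or to condition 2. The score column has no name; in MACS2 it is a log10 likelihood ratio. The scaling between libraries is not stated, and unequal depth or enrichment of the ChIP libraries could favour calls in 1 condition. The 4 libraries give no value per sample in this list, and total reads are not known here.

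Regions were set against GENCODE M21 genes and the GRCm38.p6 sequence with Python 3.11.15 and numpy 2.4.6; all regions lay inside the chromosomes, and coordinates count from 1. An overlap needed 1 bp. Start-site windows were 1000 bp either side of any annotated start of a protein-coding gene, and classes went by midpoint in the order start site, exon, intron, intergenic. Other settings were flanks of 0, 2 and 10 kb, start windows of 500 and 2500 bp, midpoints, the 5′-most start alone, the majority of bases, scores at or above the median, and the list without its 2 commonest scores. The overlap and class steps were checked on constructed examples. The genes and lists were chosen with earlier results of these data known. Named were all 6 genes with every region, coding genes sharing a region, and of the 31 others up to 8 with the highest score, up to 4 with the most regions and up to 4 without any, in alphabetical order. Markers of 1 further cell type are not reported here.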

Additional observations from a re-analysis of the deposited data

How the results depend on the processing

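The 26 regions became 17 without flanks and 13 when scores below the median were dropped, and lay between 22 and 28 with flanks of 2 or 10 kb, midpoints or without the 2 commonest scores; none was a 5 µM region under any of these settings. All 6 genes kept a region near a start with windows of 500 and 2500 bp, by midpoint and without the commonest scores. The shares of all protein-coding genes under these settings were 32.2%, 46.2%, 38.3% and 38.6%. With the 5′-most start alone 4 genes had such a region, beside 32.2% of all protein-coding genes. With scores at or above the median 3 had one (Fkbp5, Hsp90aa1 and Hsp90ab1), where the share of all protein-coding genes was 14.3%. The 5 genes with an intronic region away from starts became 3 with start windows of 2500 bp (Bag1, Fkbp4 and Fkbp5), beside 25.1% of all protein-coding genes. The wider windows take in the regions of Hsp90aa1 and Ptges3. Of the 31 other chaperone genes, 27 had a region, beside 60.7% of all protein-coding genes. Over the alternatives this went from 19 (scores at or above the median, beside 43.6%) to 29 (flanks of 10 kb, beside 65.3%). No paired analysis was possible because the labels give no choline level per library and the list holds no value per library. The depth of the libraries is not known here, which limits any statement on regions that were not called.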

Other observations

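The 6 genes lie on 5 chromosomes whose density of regions differs. Chromosome 17, with Fkbp5 and Hsp90ab1, had 27.0 regions per Mb, chromosome 4 (Bag1) 23.4, chromosome 6 (Fkbp4) 16.6, chromosome 10 (Ptges3) 12.7 and chromosome 12 (Hsp90aa1) 9.96, and the highest density of the list was 37.5 on chromosome 11. The gene on the sparsest of these 5 chromosomes, Hsp90aa1, had the fewest regions of the 6. By regions per 10 kb of span and flanks the lowest was Fkbp5 (0.467), on the densest of the 5, and Hsp90aa1 had 1.36. With 1 or 2 genes per chromosome, this is a description only.

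Coding genes that share regions with the 6 have at least 1 region by that choice. They had between 1 and 4, beside a median of 2 over protein-coding genes with at least 1 region. Within span plus 5 kb, Nfkbie had 4 regions, Itfg2 and Slc35b2 had 3 each, Atp5b, which encodes a subunit of the mitochondrial ATP synthase, and Chmp5 had 2 each, and Spink4 had 1. Both Chmp5 regions are also regions of Bag1, so these calls cannot be told apart by gene.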
